A study of Mus musculus with 6 samples.

Results

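The 10 Toll-like receptor genes Tlr1 to Tlr9 and Tlr13 were followed in macrophages of the recovering mouse colon, with and without overexpression of the transcription factor E4BP4. They were taken by gene symbol from the 25124 gene rows of the authors' expression table, which gives TPM, the transcript level scaled for exon length and library depth. Of these receptors, 5 act at the cell surface (Tlr1, Tlr2, Tlr4, Tlr5 and Tlr6) and 5 in endosomes (Tlr3, Tlr7, Tlr8, Tlr9 and Tlr13). All 10 passed the level required for a test, which was a group mean of 1 TPM or more.

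The transgenic group (TG) held 3 libraries from C57BL/6 mice with macrophage-specific overexpression of E4BP4, a basic leucine zipper protein encoded by Nfil3. The titles of all 3 name E4BP4, while the genotype labels of TG libraries 2 and 3 end the gene name in another digit than that of library 1; the titles were followed. The wild type group (WT) held 3 libraries from C57BL/6 mice. Mice of both groups were 8 weeks old and had colitis: they drank 2.0% dextran sulfate sodium (DSS), which damages the lining of the colon, for 7 days, then plain water for 7 days, and were sacrificed on day 14. Colon macrophages were purified with a cell sorter from lamina propria suspensions, and polyadenylated RNA was taken from 20 ng of total RNA. Every sample had the DSS course, so the comparison is between genotypes after colitis. The sources used here give neither the promoter that drives the transgene nor the sorting gate. Nor is it stated whether each library is a separate mouse, so a p-value speaks of the spread among libraries alone, and that spread may be technical.

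Toll-like receptors are membrane proteins with a leucine-rich-repeat ectodomain that binds microbial molecules and a cytoplasmic TIR domain that recruits adaptors. The surface receptors bind components of the microbial envelope: Tlr2 pairs with Tlr1 or Tlr6 to bind lipopeptides, Tlr4 with Ly96 binds lipopolysaccharide, and Tlr5 binds flagellin. The endosomal receptors bind nucleic acids and need the chaperone Unc93b1 to leave the endoplasmic reticulum. Through the adaptors Myd88 and Ticam1 both classes activate NF-kappaB and interferon regulatory factors, and in the colon they read a dense microbiota across an epithelium that DSS has injured.

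Promoter sequences are shown for the member that rose most (Tlr9), for another endosomal member that rose (Tlr8), and for the member that fell (Tlr2). Each runs from 250 bases before the RefSeq start of the gene to 30 bases after it, 5′ to 3′ on the gene's strand, in GRCm38.p6. The Tlr9 window is chr9:106222348-106222627 on the plus strand, the Tlr8 window chrX:167264300-167264579 on the minus strand and the Tlr2 window chr3:83841579-83841858 on the minus strand. Capitals mark the matches to the motifs described after them.
Tlr9: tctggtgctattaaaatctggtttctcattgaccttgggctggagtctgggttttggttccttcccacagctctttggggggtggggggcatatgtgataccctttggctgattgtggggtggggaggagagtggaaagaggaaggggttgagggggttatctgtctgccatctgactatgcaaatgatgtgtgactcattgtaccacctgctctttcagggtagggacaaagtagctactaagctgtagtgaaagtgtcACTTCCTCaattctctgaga
Tlr8: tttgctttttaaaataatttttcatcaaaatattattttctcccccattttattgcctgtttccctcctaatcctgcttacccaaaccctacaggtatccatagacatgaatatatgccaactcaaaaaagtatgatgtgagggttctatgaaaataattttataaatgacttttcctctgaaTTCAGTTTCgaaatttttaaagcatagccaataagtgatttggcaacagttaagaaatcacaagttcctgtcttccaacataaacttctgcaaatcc
Tlr2: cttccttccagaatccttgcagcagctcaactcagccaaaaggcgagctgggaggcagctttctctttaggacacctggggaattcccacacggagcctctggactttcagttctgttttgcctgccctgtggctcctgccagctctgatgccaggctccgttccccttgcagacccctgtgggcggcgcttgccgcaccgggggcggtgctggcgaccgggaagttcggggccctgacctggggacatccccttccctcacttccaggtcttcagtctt

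Of the 10 members, 8 had an entry in the RefSeq promoter table, with 10 promoters between them. Searching 250 bases before to 50 bases after each start on both strands, the E4BP4 and PAR bZIP site TTACGTAA was in none of these 10 promoters, and was in 0.119% of all 32851 promoters. Its variant TTATGTAA was also in none, against 0.938% of all promoters. The letters of the PU.1 site GAGGAAGT, bound by a factor that macrophages need to develop, were in the promoters of Tlr1 and Tlr9, against 3.20% of all promoters. In Tlr9 they read ACTTCCTC, bases 10 to 17 after the start on the other strand. The interferon response element GAAANNGAA was in the promoters of Tlr6 and Tlr8, against 8.56% of all promoters, and in Tlr8 it read TTCAGTTTC on the other strand, 67 to 59 bases before the start. In Tlr1 and Tlr6 the matches lay in the window of another start than that of the counted transcript, whose own window held none. One form of the NF-kappaB site, GGANNTTCC, was in the promoter of Tlr3, against 4.26% of all promoters. The Tlr2 window held none of these 5 letter strings. Other forms of the sites, among them other NF-kappaB sequences, were not searched, so their absence from any window, that of Tlr2 included, is not shown. These matches are descriptions of the letters, not evidence of binding.

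A second sequence bears on how reads were assigned. Tlr1 and Tlr6 are neighbours on chromosome 5, and their coding sequences were 73.3% identical. Their longest shared run was 229 bases, bases 1468 to 1696 of the Tlr1 coding sequence.
Tlr1 and Tlr6: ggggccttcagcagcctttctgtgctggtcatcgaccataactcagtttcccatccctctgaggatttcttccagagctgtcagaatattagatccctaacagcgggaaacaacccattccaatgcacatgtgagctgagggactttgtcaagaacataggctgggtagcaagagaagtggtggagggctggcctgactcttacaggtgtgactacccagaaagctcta

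Of the 2734 windows of 50 bases in the Tlr1 transcript, 16.6% occurred in Tlr6, and 12.6% of the Tlr6 windows occurred in another gene, so the split of reads between Tlr1 and Tlr6 is uncertain. The windows came from GENCODE transcripts, and for Tlr3, Tlr6 and Tlr8 the longest transcript stood in for the counted one. For Tlr4 and Tlr8 the searched sequence (4077 and 3431 bases) was shorter than the counted exons (7886 and 4212 bases), so part of these was not checked. Within the searched sequence of Tlr2, Tlr4, Tlr5, Tlr7, Tlr8, Tlr9 and Tlr13 no window was shared with another annotated gene. For Tlr3 1.56% were, all with the antisense gene Gm45542; the library kit is not described in the labels as keeping strand, so their reads cannot be told apart there.

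The libraries were similar in depth, with 13.97 to 15.06 M reads recovered in genes, where the file headers state totals of 17.25 to 18.90 M. Nfil3, the overexpressed gene, averaged 136 ± 3.99 TPM in TG and 119 ± 1.40 TPM in WT libraries (SD, n = 3 each), a ratio of 1.14 (limma adjusted p = 0.00261). In the authors' deposited table of genotype differences, counted over the gene span, its log2 fold change was 0.09 (adjusted p = 0.0169 in that table). Over all 12633 tested genes, 8.71% were higher and 13.2% lower in TG at a limma adjusted p below 0.05, or 1100 and 1666 genes; with upper-quartile scaling these were 1425 and 1315, so that 52.0% of called genes were higher, against 39.8% in the fit as reported. All 9 macrophage markers were present; 3 rose in TG, among them Adgre1 at 426 TPM in TG and 361 TPM in WT, and 5 fell, among them Mertk at 42.5 TPM in TG and 50.1 TPM in WT. Macrophage markers summed to 9227 to 9304 TPM in TG and 9832 to 9919 TPM in WT, and each other marker list had a lower sum. Most of the macrophage sum was Lyz2, at 5945 TPM in TG and 6670 TPM in WT, so the sum mainly reflects that gene. Single markers of other cells could still be high, such as the neutrophil marker S100a9 at 187 TPM in TG and 439 TPM in WT. No marker of the 9 lists was at 0 in all 6 libraries, and Elane, a neutrophil granule enzyme, was at 0 in all WT libraries. In such bulk samples, fewer cells of a type and less RNA per cell cannot be told apart.

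Tlr2 was the most abundant receptor of the family in both genotypes, and Tlr3 the least abundant of the 10. In TG libraries the order by mean TPM was Tlr2 (143), Tlr1 (60.8), Tlr13 (48.0), Tlr9 (43.6), Tlr8 (43.4), Tlr7 (37.8), Tlr5 (17.7), Tlr4 (12.9), Tlr6 (8.46) and Tlr3 (5.50). In WT libraries it was Tlr2 (172), Tlr1 (65.6), Tlr13 (48.4), Tlr8 (38.5), Tlr9 (33.3), Tlr7 (33.3), Tlr5 (15.5), Tlr4 (11.7), Tlr6 (8.40) and Tlr3 (4.67). Neighbours in the order had separate ranges, except Tlr9 and Tlr8 in TG and Tlr9 and Tlr7 in WT, whose libraries overlapped. Tlr9 thus stood above Tlr7 in every TG library and overlapped with it in WT. The Tlr4 level depends on the transcript chosen: its row uses an exon length of 7886 bases, against 4077 bases for the GENCODE transcript. How many of its reads the shorter transcript would keep is not given by the table, so its place in the order relative to Tlr5 is uncertain.

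**Figure D1:**
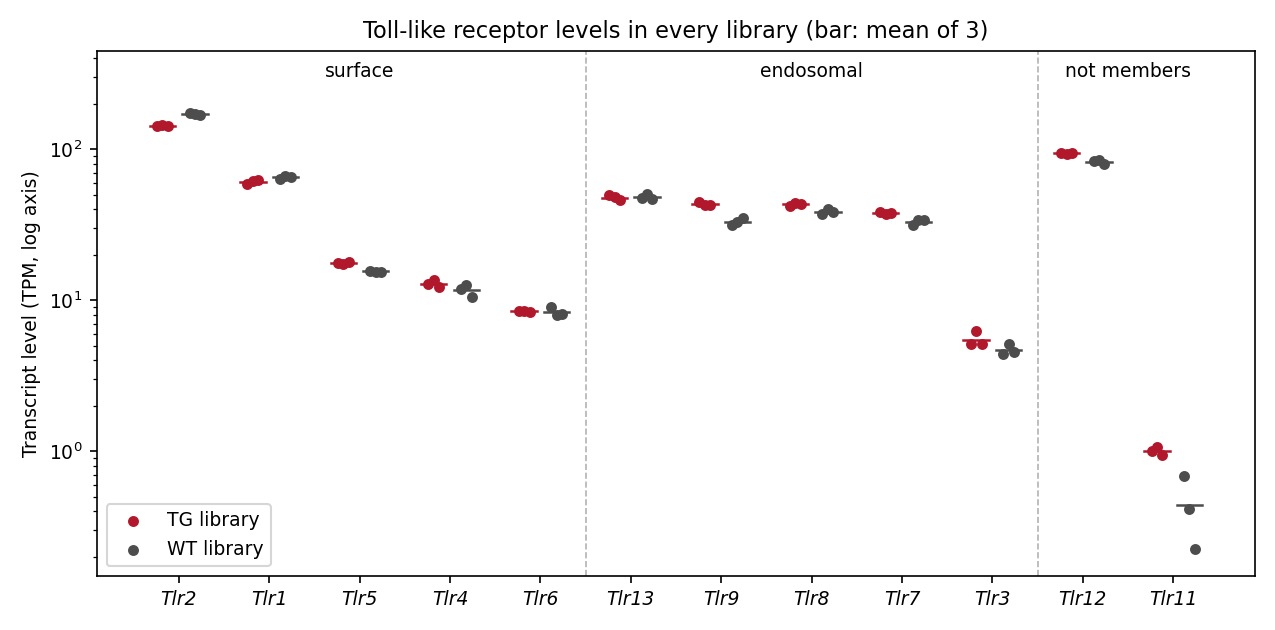
Level of each Toll-like receptor gene in TPM (log axis) in the 3 TG libraries (red, left of each pair) and the 3 WT libraries (grey, right), with the group mean as a bar. Tlr2 lies between 142 and 146 TPM in TG and between 169 and 174 TPM in WT, while Tlr9 lies between 42.7 and 45.0 TPM in TG and between 31.5 and 35.2 TPM in WT.

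Between genotypes, 4 of the 10 members rose in TG (Tlr5, Tlr7, Tlr8 and Tlr9), 1 fell (Tlr2) and 5 did not pass the test, where 21.9% of all tested genes were called in either direction. With a filter of 5 TPM the member counts stayed, while 1016 genes were higher and 1580 lower among 9049 tested, a larger share. The changes were small: the called members differed by 12.6% to 31.0% of the WT mean. By location, 3 of the 5 endosomal members rose and 0 fell, and among the 5 surface members 1 rose and 1 fell. The median log2 fold change was 0.18 over the endosomal members and 0.01 over the surface members, beside -0.01 over all tested genes. Every TG library was above every WT library for 4 members, against 17.1% of tested genes, and below for 2, against 22.3%. Groups thus did not overlap for 6 members, where they did not overlap for 39.3% of tested genes. Tested as recovered reads with limma voom, 5 members were called higher and 2 lower, where that test called 29.4% of tested genes. No test was made of the difference between the location classes.

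Tlr2, the shared subunit of the lipopeptide receptors, had 142, 146 and 142 TPM in TG, against 174, 171 and 169 TPM in WT libraries. All TG libraries were below all WT libraries, on 5109 to 5372 reads in TG and 6049 to 6246 reads in WT. Tlr2 fell by 16.5%, a log2 fold change of -0.26 ± 0.024 SE (limma adjusted p = 0.000237), and it was called in each of the 6 fits that left out a library. Its gene lies at chr3:83836272-83841608 on the minus strand (NM_011905, 3 exons, mm10).

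Tlr1, the Tlr2 partner for triacylated lipopeptides, had 58.6, 61.5 and 62.4 TPM in TG, against 63.9, 66.9 and 66.0 TPM in WT. The groups did not overlap, but the difference did not pass the test, at a log2 fold change of -0.11 ± 0.0364 SE (95% interval -0.19 to -0.02, limma adjusted p = 0.0738). It passed when recovered reads were tested with limma voom (adjusted p = 0.0418). Tlr6, the partner for diacylated lipopeptides, had 8.46, 8.49 and 8.43 TPM in TG, against 9.01, 8.03 and 8.16 TPM in WT. The Tlr6 groups overlapped, with an interval of -0.15 to 0.17 for the log2 fold change (limma adjusted p = 0.93). Set beside each partner, Tlr2 was 2.36 ± 0.0757 times the level of Tlr1 in TG and 2.62 ± 0.0953 times in WT, and 16.93 ± 0.218 times the level of Tlr6 in TG and 20.46 ± 1.02 times in WT (SD, n = 3 each). Both ratios were lower in every TG library than in any WT library, and they carry the uncertain split of reads between Tlr1 and Tlr6.

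Tlr4, the lipopolysaccharide receptor, had 12.8, 13.7 and 12.2 TPM in TG, against 11.9, 12.6 and 10.6 TPM in WT. Its groups overlapped and it did not pass the test, with a log2 fold change of 0.13 (95% interval -0.05 to 0.31, limma adjusted p = 0.293), though limma voom on recovered reads called it (adjusted p = 0.0443). Tlr5, the flagellin receptor, had 17.8, 17.4 and 17.9 TPM in TG, against 15.6, 15.5 and 15.5 TPM in WT, on 683 to 760 reads in TG and 611 to 634 reads in WT. It was the surface member that rose, 1.14-fold, with every TG library above every WT library (log2 fold change 0.18 ± 0.0459 SE, limma adjusted p = 0.0289). Each of the 6 fits that left out a library lost that call, at adjusted p of 0.0622 to 0.0939.

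Markers of several other cell types were lower in TG, as Tlr2 was. Of 6 tested neutrophil markers 5 fell and 0 rose, with summed levels of 407 to 463 TPM in TG and 990 to 1018 TPM in WT over the list of 10, in which Mpo, Elane, Camp and Ltf averaged under 1 TPM in each group. Most of that sum was S100a8 (154 TPM in TG and 409 TPM in WT) and S100a9 (187 and 439 TPM). The tested marker not called was Csf3r, at 56.8 TPM in TG and 58.9 TPM in WT. Of 8 epithelial markers 6 fell, with sums of 268 to 291 TPM in TG and 382 to 389 TPM in WT. Fibroblast markers summed to 106 to 110.2 TPM in TG and 151 to 153 TPM in WT, with 5 of 7 lower, and endothelial markers to 32.7 to 36.0 TPM in TG and 50.2 to 53.8 TPM in WT, with 5 of 6 lower. The part of these cells in the Tlr2 result was not tested.

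Tlr9, the receptor for unmethylated CpG DNA, had the largest change of the 10 members, with 45.0, 43.1 and 42.7 TPM in TG, against 31.5, 33.1 and 35.2 TPM in WT. Its lowest TG library was above its highest WT library, on 1836 to 2048 reads in TG and 1345 to 1531 reads in WT. The ratio of means was 1.31, and the log2 fold change was 0.38 ± 0.0486 SE (95% interval 0.27 to 0.49, limma adjusted p = 0.00126). The call held in each of the 6 fits that left out a library and in all 7 other alternatives. The gene lies at chr9:106222598-106226876 on the plus strand (NM_031178, 2 exons, mm10), and its promoter is the first of the sequences printed above.

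Tlr7 and Tlr8, which recognise single-stranded RNA and its breakdown products (Tlr8 best known for this in human), are neighbouring genes on the X chromosome. Tlr7 had 38.3, 37.1 and 38.0 TPM in TG, against 31.7, 33.9 and 34.2 TPM in WT. Tlr8 had 42.4, 44.3 and 43.5 TPM in TG, against 37.2, 40.0 and 38.4 TPM in WT. Both rose with no overlap between groups, with a log2 fold change of 0.18 ± 0.0424 SE for Tlr7 (limma adjusted p = 0.02) and of 0.17 ± 0.0406 SE for Tlr8 (limma adjusted p = 0.0224). Their ratio to each other differed by less than its spread between libraries, with Tlr8 at 1.15 ± 0.0429 times Tlr7 in TG and 1.16 ± 0.0309 times in WT (SD, n = 3 each). Tlr9, by contrast, was 1.15 ± 0.0280 times Tlr7 in TG and 1.00 ± 0.0273 times in WT. The Tlr7 call was lost without TG library 1 (adjusted p = 0.0616), TG library 3 (0.0665) or WT library 1 (0.0508). The Tlr8 call was lost without TG library 2 (adjusted p = 0.0773), TG library 3 (0.0691), WT library 1 (0.0637) or WT library 3 (0.0609).

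The remaining endosomal members did not pass the test. Tlr13, a receptor for bacterial ribosomal RNA, had 49.5, 48.0 and 46.4 TPM in TG, against 47.5, 50.8 and 47.0 TPM in WT. Its groups overlapped, and the 95% interval of its log2 fold change was -0.11 to 0.09, which lies below the interval of Tlr9. Tlr3, the receptor for double-stranded RNA, had 5.10, 6.22 and 5.16 TPM in TG, against 4.39, 5.11 and 4.52 TPM in WT, with one WT library inside the TG range. Its log2 fold change of 0.19 had an interval of -0.04 to 0.42 (limma adjusted p = 0.214), on 288 to 329 reads in TG and 232 to 281 reads in WT, so a rise as large as that of Tlr7 and none at all were both within its error.

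Of the endosomal receptors, Tlr7 and Tlr9 are also abundant in plasmacytoid dendritic cells and B cells. Of 6 tested plasmacytoid dendritic cell markers 3 rose in TG and 0 fell, with summed levels over the list of 8 of 244 to 259 TPM in TG and 204 to 223 TPM in WT. Most of the sum was Bst2, an interferon-induced protein that many cells make. Siglech, a defining marker, averaged 3.16 TPM in TG and 0.737 TPM in WT. The 3 tested markers not called were Tcf4 (26.6 TPM in TG and 25.7 TPM in WT), Ly6d (8.19 and 9.19 TPM) and Runx2 (3.81 and 4.75 TPM). Conventional dendritic cell markers summed to 93.6 to 104 TPM in TG and 72.2 to 78.3 TPM in WT, with 3 of 8 tested higher and 1 lower. T and NK cell markers summed to 121 to 129 TPM in TG and 112 to 118 TPM in WT, with 2 of 7 tested higher. B cell markers summed to 59.1 to 68.9 TPM in TG and 62.6 to 71.8 TPM in WT, and 0 of 8 were called by limma. The part of plasmacytoid and conventional dendritic cells and of T and NK cells in the endosomal results was not tested.

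**Figure D2:**
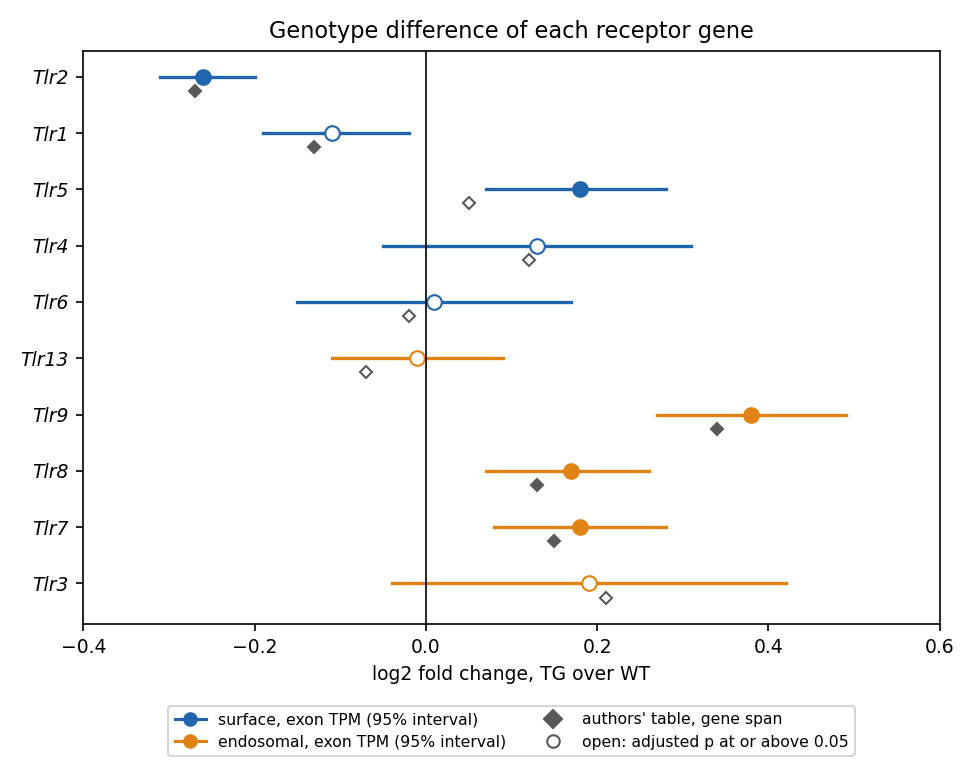
Log2 fold change of each member, TG over WT, from exon TPM with its 95% interval (circles, blue for surface and orange for endosomal) and from the authors' deposited table counted over the gene span (diamonds, no interval). Filled symbols have an adjusted p below 0.05: Tlr2 lies at -0.26 and Tlr9 at 0.38, and Tlr5 is filled at 0.18 for exons and open at 0.05 for the span.

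For each member that did not overlap between genotypes, the exact two-sided permutation test of mean TPM gave p = 0.10, which is its lowest possible value with 3 libraries in each group. It gave p = 0.20 for Tlr3 and Tlr4, 0.70 for Tlr13 and 1.00 for Tlr6 with the same exact test.

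Summed by location, the receptor transcripts moved in opposite directions. The 5 surface members together held 239.6, 247 and 243 TPM in TG, against 275, 274 and 269 TPM in WT, a ratio of means of 0.89. Without Tlr2, the other 4 surface members held 99.9 ± 1.92 TPM in TG and 101 ± 1.56 TPM in WT (SD, n = 3 each), so the lower surface sum lay in Tlr2. Its share of the surface sum was 58.92% ± 0.424 in TG and 62.88% ± 0.51 in WT. The 5 endosomal members together held 180.2, 179 and 176 TPM in TG, against 152, 163 and 159 TPM in WT, a ratio of 1.13. The endosomal over the surface sum was 0.75, 0.72 and 0.72 in TG, against 0.55, 0.59 and 0.59 in WT. All 10 members together held 421 ± 3.75 TPM in TG and 431 ± 5.57 TPM in WT, so that the family total differed less than its makeup did. These sums are descriptions with no test, since the members were chosen with results of these data known.

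**Figure D3:**
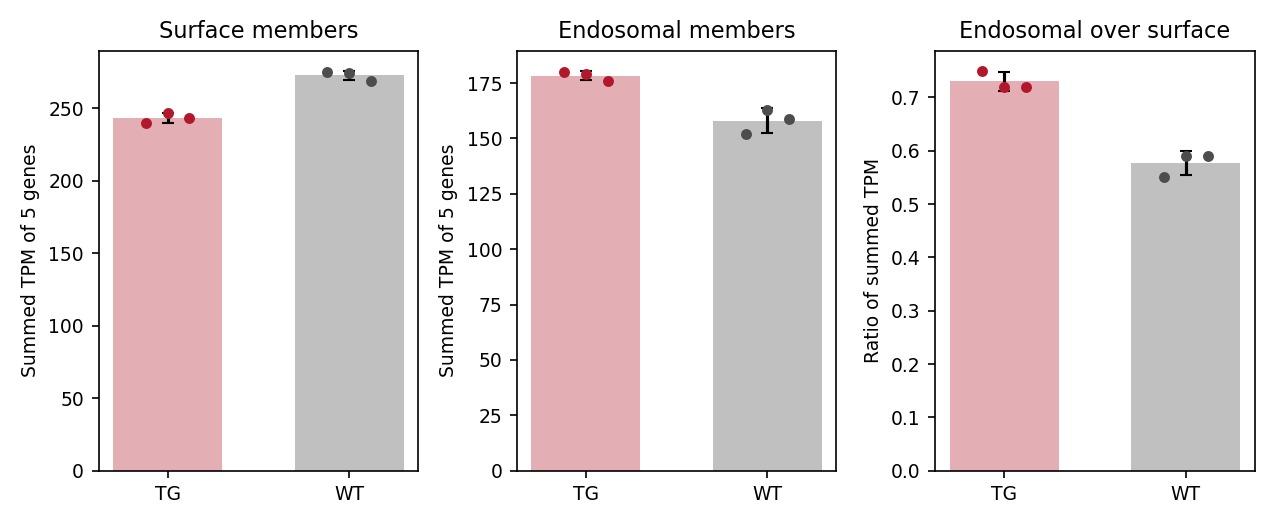
Summed TPM of the 5 surface members (left panel) and of the 5 endosomal members (middle panel), and the ratio of the endosomal to the surface sum (right panel), in TG (red) and WT (grey) libraries. Bars are means, whiskers the SD of 3 libraries and points the libraries; the ratio is 0.73 in TG and 0.58 in WT.

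The authors' deposited table of genotype differences counts reads over the whole gene span, introns included, and 5 of the 10 members have another transcript there than in the TPM table. It called 5 members at an adjusted p below 0.05, where it called 20.9% of its 24421 rows. In the authors' deposited table Tlr7, Tlr8 and Tlr9 were higher in TG, with log2 fold changes of 0.15, 0.13 and 0.34 and adjusted p of 0.00325, 0.0381 and 2.98e-11. Tlr1 and Tlr2 were lower in the authors' deposited table, at -0.13 and -0.27 with adjusted p of 0.0034 and 4.88e-29. Tlr2, Tlr7, Tlr8 and Tlr9 were thus called with the same sign over exons and over the span, while Tlr1 was called over the span and by voom.

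Tlr5 differed between the exon and the span values. In the authors' deposited table its log2 fold change was 0.05 (adjusted p = 0.555), against 0.18 over exons. Taken back from the log2 values of that table, the authors' span values averaged 1046 in TG and 1018 in WT, while exon reads averaged 721 in TG and 630 in WT. Exon reads were thus 68.9% of the span value in TG and 61.9% in WT, and the span less the exons was 325 in TG and 388 in WT. The authors' log2 values are regularized, which draws libraries toward each other, so these differences are approximate. Exon reads as a percent of the span value were higher in TG for every member, not for Tlr5 alone. They were 94.8% in TG and 85.8% in WT for Tlr3, 104% and 96.0% for Tlr9, and 90.8% and 90.7% for Tlr2. For Tlr9, with the same transcript in both tables, exon reads in TG averaged 1926 against a span value of 1851, so the scales do not match. How much of the Tlr5 shift is its own was not tested.

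Tlr4 and Tlr8 showed the reverse of Tlr5, with more exon reads than the span value in both genotypes. For Tlr4 exon reads averaged 1294 in TG and 1173 in WT, against authors' span values of 860 in TG and 811 in WT. The Tlr4 transcript of the TPM row extends 3785 bases past the end of the authors' span, at its 3′ end. For Tlr8 exon reads averaged 2330 in TG and 2061 in WT, against authors' span values of 1426 in TG and 1327 in WT, and its TPM transcript extends 1609 bases further at the 3′ end. Both genes kept their sign in the 2 ways of counting.

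The mouse has 2 further endosomal family members, Tlr11 and Tlr12, which recognise the profilin of Toxoplasma and are not among the 10. Tlr12 had 93.9, 93.6 and 94.3 TPM in TG, against 83.8, 84.4 and 80.3 TPM in WT, second to Tlr2 in level in both genotypes. It rose with no overlap between groups (log2 fold change 0.18 ± 0.0293 SE, limma adjusted p = 0.00386), and the call held in each of the 6 fits that left out a library. Tlr11 was near the lower limit of the test, with 0.999, 1.07 and 0.940 TPM in TG, against 0.686, 0.415 and 0.224 TPM in WT. It rested on 40 to 42 reads per TG library and 9 to 27 reads per WT library and did not pass (limma adjusted p = 0.0783). Tested as recovered reads with limma voom, Tlr11 did pass (adjusted p = 0.0039). With both added, the endosomal sum was 273 ± 2.09 TPM in TG and 241 ± 5.66 TPM in WT (SD, n = 3 each), which is again a ratio of 1.13.

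By correlation of log2(TPM + 1) over the 6 libraries, the genes whose pattern was most like that of Tlr9 were Mapk14 (r = 0.9986) and the predicted gene Gm13710 (r = 0.9975). Mapk14, which encodes the p38 alpha kinase, averaged 94.5 TPM in TG and 78.4 TPM in WT, and Gm13710 averaged 4.93 TPM in TG and 2.12 TPM in WT. With 6 libraries in 2 groups that share a genotype difference, 358 genes, or 2.83% of those tested, reached an r of at least 0.95 with Tlr9, so the likeness is a description.

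The genes that serve the receptors were counted in 7 lists. Of 84 pathway genes, 82 were tested, 25 rose and 15 fell, or 48.8% called beside 21.9% of all tested genes. The median log2 fold change over them was 0.00. The called share depends on level: with a filter of 5 TPM, 1016 genes were higher and 1580 lower among 9049 tested. Of the pathway genes 22 were then higher and 15 lower. How many of them were tested at that filter is not given here, so their called share there cannot be set beside that of all genes. The lists are described in the order in which a signal passes.

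Among homologues and co-receptors 3 of 6 tested genes rose and 1 fell. Cd14, which hands lipopolysaccharide to Tlr4 and lipopeptides to Tlr2, had 1502, 1429.9 and 1441 TPM in TG, against 1813, 1778 and 1765 TPM in WT. It fell with no overlap, at a log2 fold change of -0.29 (limma adjusted p = 5.96e-05). Cd36, a scavenger receptor that also presents diacylated lipids to Tlr2 with Tlr6, had 61.4, 61.8 and 62.5 TPM in TG, against 26.9, 28.7 and 26.3 TPM in WT, a ratio of 2.27 (limma adjusted p = 1.94e-06). The Tlr4 homologue Cd180 and its partner Ly86 rose together: Cd180 averaged 37.6 TPM in TG and 33.4 TPM in WT (limma adjusted p = 0.0118), and Ly86 412 TPM in TG and 354 TPM in WT (limma adjusted p = 0.000199). Ly96, the lipid-binding partner of Tlr4, averaged 24.1 TPM in TG and 25 TPM in WT and did not pass (limma adjusted p = 0.86).

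For folding, trafficking and endosomal processing, 3 of 17 genes rose and 4 fell. Unc93b1, the chaperone of the endosomal receptors, had 818, 817 and 829 TPM in TG, against 733, 727 and 739.7 TPM in WT. It rose with no overlap, a log2 fold change of 0.16 ± 0.0143 SE (limma adjusted p = 0.000173). Pld4, an endosomal exonuclease that degrades single-stranded nucleic acids, averaged 413 ± 4.71 TPM in TG and 335 ± 6.16 TPM in WT (limma adjusted p = 4.69e-05). Ctss, a cathepsin of the endolysosome, averaged 2122 TPM in TG and 1864 TPM in WT (limma adjusted p = 0.000326). Slc15a3, an endolysosomal peptide and histidine transporter, fell, with 207 TPM in TG and 246 TPM in WT (limma adjusted p = 0.000193).

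The adaptors split, with 1 of 5 tested higher and 1 lower. Myd88, used by the whole family except Tlr3, had 83.9, 83.9 and 77.2 TPM in TG, against 95.2, 101 and 98.6 TPM in WT. It fell with no overlap, at a log2 fold change of -0.26 (limma adjusted p = 0.00323). Ticam2, which links internalised Tlr4 to Ticam1, had 14.6, 17.3 and 17.0 TPM in TG, against 12.9, 11.8 and 11.7 TPM in WT, and rose (limma adjusted p = 0.00828). Ticam1, the adaptor of Tlr3 and Tlr4, averaged 14.5 TPM in TG and 16.6 TPM in WT and did not pass (limma adjusted p = 0.155). Pik3ap1, which couples the receptors to phosphoinositide 3-kinase, averaged 119 TPM in TG and 124 TPM in WT (limma adjusted p = 0.206).

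Most kinases and ubiquitin ligases did not pass, with 2 of 19 higher and 1 lower. Peli1, a ubiquitin ligase of the Irak kinases, averaged 44.3 TPM in TG and 37.0 TPM in WT (limma adjusted p = 0.00197). Map3k8, the kinase that starts the Erk branch, averaged 32.9 TPM in TG and 27.3 TPM in WT (limma adjusted p = 0.00697). Ikbke, a kinase of interferon regulatory factors, fell, with 48.6 TPM in TG and 58.2 TPM in WT (limma adjusted p = 0.00125). Tab1, a subunit of the Tak1 kinase complex, averaged 6.33 TPM in TG and 5.13 TPM in WT and did not pass (limma adjusted p = 0.109).

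Among transcription factors 3 of 8 rose and 1 fell. Irf5 and Irf7, which act downstream of Myd88 in the endosomal pathway, both rose: Irf5 averaged 144 TPM in TG and 129 TPM in WT (limma adjusted p = 0.0117), and Irf7 46.3 TPM in TG and 35 TPM in WT (limma adjusted p = 0.0123). Irf1 averaged 149 TPM in TG and 107 TPM in WT (limma adjusted p = 2.9e-05). Rel, an NF-kappaB subunit, fell, with 56.9 TPM in TG and 61.9 TPM in WT (limma adjusted p = 0.0412). The Rel call was lost without TG library 1 (adjusted p = 0.111), TG library 3 (0.126), WT library 1 (0.106), WT library 2 (0.0675) or WT library 3 (0.0968).

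Inhibitors of the pathway went both ways, with 3 of 12 higher and 3 lower. Tnfaip3, the A20 enzyme that removes activating ubiquitin chains, had 338, 334 and 334 TPM in TG, against 271, 264 and 268 TPM in WT, and rose (limma adjusted p = 2.13e-05). Trafd1 averaged 128 TPM in TG and 109 TPM in WT (limma adjusted p = 0.00192). Socs1, a suppressor of cytokine signalling, fell, with 5.76 ± 0.81 TPM in TG and 8.68 ± 0.946 TPM in WT (limma adjusted p = 0.0135). Dok3, an adaptor that dampens signalling, averaged 125 TPM in TG and 136 TPM in WT (limma adjusted p = 0.0246), a call lost without TG library 1 (adjusted p = 0.0682), TG library 3 (0.0838), WT library 1 (0.0657) or WT library 3 (0.0556).

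Of the 15 induced cytokines and chemokines 10 rose and 4 fell. Nos2, the inducible nitric oxide synthase, had 14.9, 14.1 and 13.8 TPM in TG, against 61.2, 64.0 and 58.2 TPM in WT, a log2 fold change of -2.02 (limma adjusted p = 3.19e-07). The interleukin 1 genes fell as well, Il1a to 85.9 TPM in TG against 124 TPM in WT and Il1b to 2452 TPM in TG against 2869 TPM in WT (limma adjusted p = 5.54e-05 and 4.72e-06). Ccl5 rose, with 58.5 ± 2.05 TPM in TG and 35.2 ± 2.93 TPM in WT (limma adjusted p = 0.00014). Il6 and Cxcl10, named after their values were seen, also rose: Il6 averaged 10.2 TPM in TG and 3.42 TPM in WT (limma adjusted p = 0.000248), and Cxcl10 141 TPM in TG and 102 TPM in WT (limma adjusted p = 0.000222). The same markers of neutrophils and dendritic cells given above moved between these libraries, and their part in the pathway results was not tested.

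**Figure D4:**
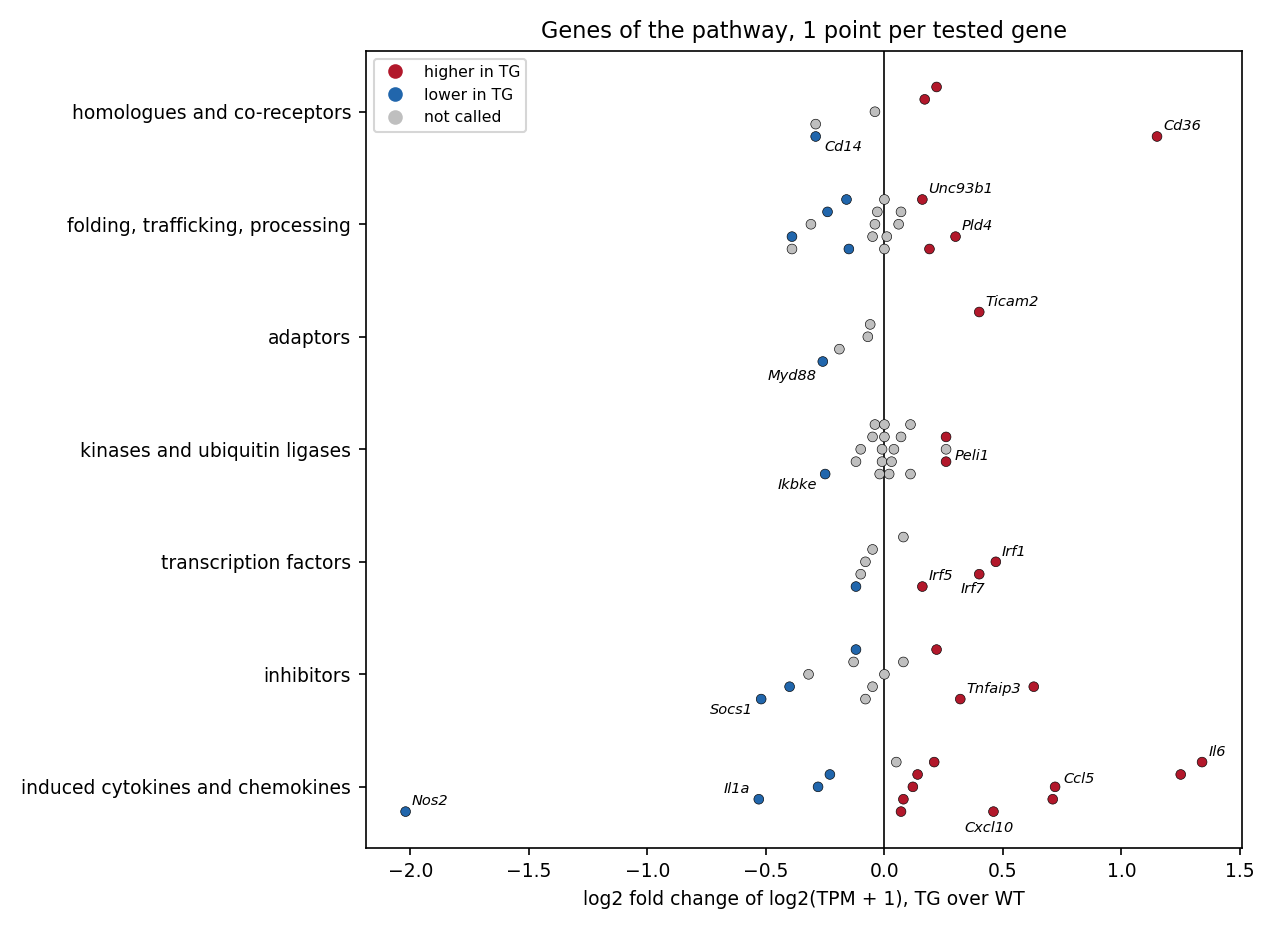
Log2 fold change, TG over WT, of the 82 tested pathway genes in 7 lists, 1 point per gene, red where higher and blue where lower in TG at an adjusted p below 0.05 and grey otherwise. Cd36 lies at 1.15 and Cd14 at -0.29 among the co-receptors, and Nos2 at -2.02 among the induced genes.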

How the data were processed

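RNA-seq of sorted colon macrophages was compared between 3 TG and 3 WT libraries, grouped by sample titles. Per the submitters' processing notes, bcl2fastq, STAR, HOMER 4.11.1 and DESeq2 were used, with build mm10. The authors deposited TPM for 25124 gene rows, counted over exons, per the file headers. A second table the authors deposited holds regularized log2 values, log2 fold changes and p-values for 24421 rows, counted over gene spans.

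In R 4.3.3, limma 3.58.1 fitted log2(TPM + 1) with its trended prior and no term besides genotype. This covered 12633 genes whose mean reached 1 TPM in either group, with a Benjamini-Hochberg adjusted p below 0.05 as the threshold. The 1 TPM added before taking log2 understates changes of low genes. TPM times exon length gave whole reads within 0.1 reads for 99.9% to 100.0% of values of up to 1000 reads, and limma voom on these reads called 29.4% of tested genes. The procedure was tested on simulated data. Alternatives were the pseudocount (0.1 TPM), filters (none or 5 TPM), upper-quartile and median-of-ratios scaling, voom, a replicate block and leaving out each library.

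Members, lists and tests were chosen with earlier results of these data known. Named genes are the 10 members, Tlr11, Tlr12 and Nfil3, and from each pathway list up to 4 tested genes of lowest unadjusted p, plus Cd14, Ly96, Unc93b1, Myd88 and Ticam1. Also named are each marker list's sum and the 2 genes most like the member that changed most. The single cell type markers named, such as Adgre1, Mertk, S100a9 and Siglech, were not chosen by this rule, nor were Il6 and Cxcl10. Promoters come from RefSeq (GRCm38.p6), transcripts from GENCODE M21. Protein identity between members was planned and is not used here.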

Additional observations from a re-analysis of the deposited data

How the results depend on the processing

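Tlr2 stayed lower and Tlr9 higher, both called, under all 13 alternatives. Leaving out 1 library at a time gave 704 to 883 genes higher over all genes (704 without TG library 2, 721 without TG library 3) and 1 to 3 members higher. Over the same fits the log2 fold change was 0.17 to 0.19 for Tlr5, 0.15 to 0.20 for Tlr7 and 0.14 to 0.19 for Tlr8, with the lost calls given above. Of the 5 members that were not called, Tlr1, Tlr3 and Tlr4 kept their sign under all 13 alternatives and the other two did not: Tlr6 ran from -0.02 to 0.06 and Tlr13 from -0.04 to 0.02 when libraries were left out, and Tlr13 was 0.02 with upper-quartile and 0.00 with median-of-ratios scaling. Limma voom called 2 members lower, adding Tlr1 (-0.10, adjusted p = 0.0418), and added Tlr4 (0.14, adjusted p = 0.0443). The surface ratio was 0.91 with upper-quartile scaling, against 0.89. The causes were not tested.

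Replicate numbers did not pair the libraries: deviations of same-numbered libraries correlated at -0.013, -0.043 and 0.032 over 12633 genes, and TG library 1 correlated best with WT library 2 (0.059). With a replicate block 922 genes were higher and 1457 lower, and the log2 fold change of Tlr5 was 0.18 with an adjusted p of 0.0703 in limma. Depth limits Tlr11, Tlr3 and Tlr6, which had at most 42, 329 and 281 reads per library.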
